A study of Homo sapiens with 6 samples.

Results

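The change from 24 to 48 h of all-trans retinoic acid (ATRA) was measured in NB4 cells as the log2 expression value of the array labelled 48 h minus that of the array labelled 24 h. NB4 is an established human line of acute promyelocytic leukaemia with the fusion protein PML-RARA, and ATRA makes it mature along the granulocyte path. The members were the 19775 genes that had at least 1 array feature (a probe set, a group of short oligonucleotides against a transcript) annotated to that gene alone. Of the 54675 probe sets, 41097 listed 1 gene, 1801 listed several and 11777 listed none. Where a gene had several, the one with the greatest mean value across the 6 arrays stood for it. The comparison was limited to the 12893 genes that reached the median of all values, a log2 value of 3.66 called the floor here, on the 24 h or the 48 h array. The other 6882 genes stayed below it on both.

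The series held 6 arrays, 1 of untreated NB4 cells and 1 each of cells harvested 4, 12, 24, 48 and 72 h after ATRA was added at 1e-06 M. The untreated and treated cells were the same line in the same serum-containing medium, and no other genotype or agent is labelled. There was no replicate at any time, so no difference below carries a test or a p-value, and a fold of 2 (a log2 difference of 1) marks which genes are counted. The values at 48 h cannot separate time in ATRA from what differed between those cultures and arrays.

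ATRA relieves the repression that PML-RARA exerts at retinoic acid response elements, and the cells then leave the cell cycle and take up the receptors, oxidase and granule proteins of neutrophils. Type I interferons act through the receptor IFNAR1 and IFNAR2, the kinases JAK1 and TYK2, and a complex of STAT proteins with IRF9 that binds the interferon-stimulated response element (ISRE) in promoters. That complex switches on antiviral effectors, RNA and DNA sensors, IRF7, which drives more interferon, and feedback inhibitors such as USP18 and SOCS1. Induction of interferon-stimulated genes by retinoic acid is a known feature of NB4 cells.

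The 6 arrays had medians between 3.64 and 3.69. The spiked control bioC, added in equal amount to each hybridisation, read 7.09 at 24 h and 6.88 at 48 h, against 8.01 and 8.11 on the untreated and 12 h arrays. The granulocyte identity of the line was visible in MPO, the myeloperoxidase of azurophil granules, at 11.78 (24 h) and 11.43 (48 h), and in PRTN3, proteinase 3, at 11.65 and 11.52. The monocyte marker CD14 did not exceed 3.59 on any array, and HLA-DRA, which acute promyelocytic leukaemia cells lack, did not exceed 3.63. ELANE, neutrophil elastase, did not exceed 3.32.

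From 24 to 48 h more genes were higher than lower. The 48 h value exceeded the 24 h value by 2-fold or more for 235 genes (1.82% of those compared), and 76 genes showed the opposite (0.589%). These shares are the background for the list counts below. At 4-fold the counts were 58 higher and 3 lower, at 8-fold 25 and 1, and at 16-fold 12 and 0. Most genes differed little: 11795 genes (91.5%) lay within 1.5-fold, the median difference was -0.03, and the 5th to 95th percentiles ran from -0.52 to 0.57. Of the higher genes, 198 were at or above the floor on both arrays and 37 came from below it, for which a fold is given as a lower limit against the floor. With low ends set to the floor, 221 genes remained 2-fold or more higher. Of the lower genes, 71 were at or above the floor on both and 5 went below it. The genes just inside the higher limit were C3 (1.001), CARD6 (1.001) and CD300LB (1.004), and those just outside were UGDH (0.997), PCMTD1 (0.996) and SIGLEC5 (0.995). The split between directions depended on the scaling. Higher genes made up 75.6% of those past 2-fold in the deposited scale, 90.2% (331 higher, 36 lower) when the hybridisation controls of the pair were set to an equal median, and 86.4% (299 higher, 47 lower) when the controls other than bioC were set to an equal mean. Those scalings raised every gene at 48 h by 0.17 and 0.12.

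**Figure D1:**
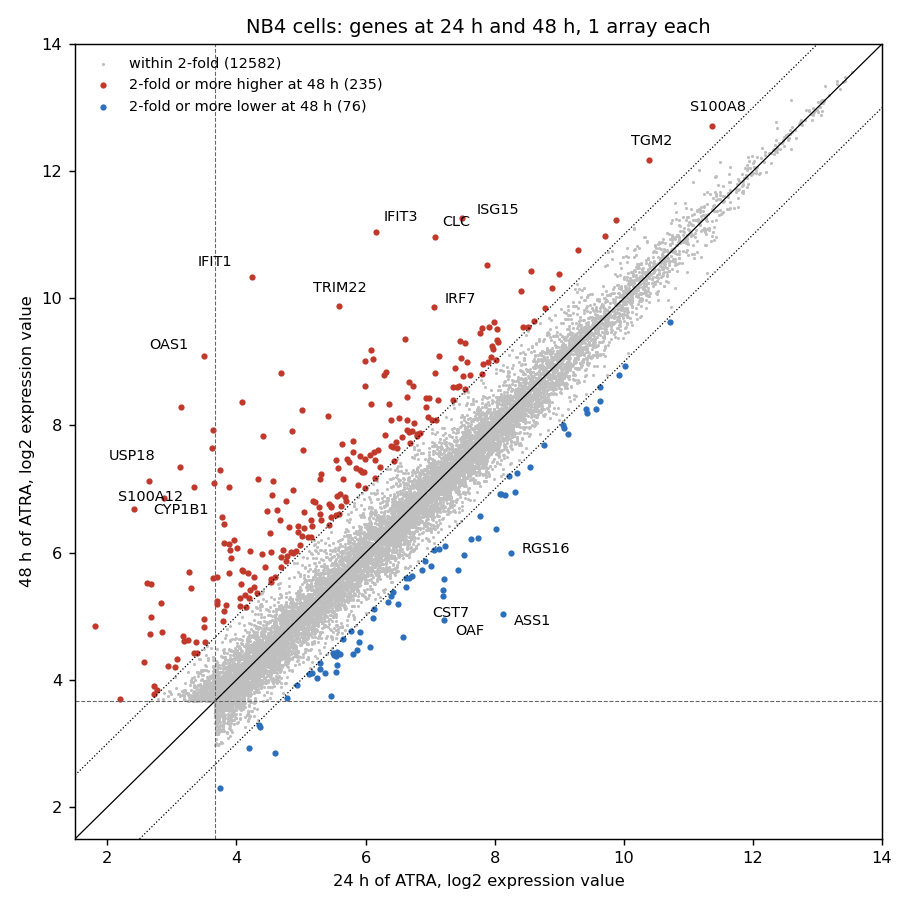
Log2 expression values of 12893 genes on the 24 h array (x axis) and the 48 h array (y axis), 1 point per gene, with the 235 genes 2-fold or more higher in red, the 76 lower in blue, dotted lines at 2-fold and dashed lines at the floor of 3.66. The red points reach further from the diagonal than the blue ones, and IFIT1 lies farthest above it, while ASS1 lies farthest below.

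Antiviral effectors were the group with the most higher genes. Of 46 genes in that list, 44 had a usable probe set and 39 passed the floor; 35 of the 39 were 2-fold or more higher and 0 were lower, with a median difference of 2.25, against -0.03 over all genes compared. With the 10 members that were below the floor at 24 h set to the floor, the median was 2.05. IFIT1, which binds the ends of foreign RNA and blocks its translation, had values of 4.16, 3.41, 3.39, 4.24, 10.33 and 12.50 on the untreated, 4, 12, 24, 48 and 72 h arrays. The first 4 arrays lay within 1 log2 unit of each other and the last pair stood apart, so that IFIT1 was 68.5-fold higher at 48 than at 24 h, the largest difference of the 12893 genes. OAS1, which makes the oligoadenylates that activate RNase L, read 3.35, 3.30, 3.98, 3.50, 9.09 and 11.63 in the same order. It was at or near the floor until 24 h and at least 43.2-fold higher at 48 h. IFIT3, a partner of IFIT1, read 4.01, 5.58, 5.00, 6.16, 11.04 and 12.70, a 29.5-fold difference from 24 to 48 h on a level that had already drifted up.

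IFIT5, of the same RNA-binding family, was 3.14 at 24 h and 8.28 at 48 h, at least 24.6-fold higher, and IFIT2 went from 4.09 to 8.37, 19.4-fold. TRIM22, an antiviral ubiquitin ligase, went from 5.58 to 9.87, 19.6-fold, and OASL, an OAS-like protein that enhances RNA sensing, from 4.69 to 8.83, 17.6-fold. IFI44L and IFI44, a pair of interferon-induced proteins, went from 2.64 to 7.12 (at least 11.0-fold) and from 2.41 to 6.69 (at least 8.14-fold). SAMD9L and SAMD9, related proteins that restrain viral replication, went from 3.62 to 7.65 (at least 15.8-fold) and from 6.09 to 9.19 (8.56-fold). OAS3 was 11.8-fold higher (3.74 to 7.30), DDX60, a helicase, 10.7-fold (4.41 to 7.84), and PARP9, an ADP-ribosyltransferase, 8.26-fold (4.86 to 7.91). IFI27, a small mitochondrial protein, was at least 9.22-fold higher (2.87 to 6.87) and reached 12.39 at 72 h. The 4 members that passed the floor without reaching 2-fold were PNPT1 (0.69), MX2 (0.59), IFITM3 (0.55) and IFITM2 (0.55), all of which were already above 7 at 24 h. Of the 5 members below the floor on both arrays, MX1 and RTP4 stood at 6.45 and 7.11 on the 72 h array. RSAD2 (viperin, an inhibitor of viral RNA synthesis), singled out after its values were seen, was 3.84 at 48 h and 10.19 at 72 h. It is counted as higher by its raw difference of 1.06 from a 24 h value below the floor, and does not reach 2-fold against the floor.

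**Figure D2:**
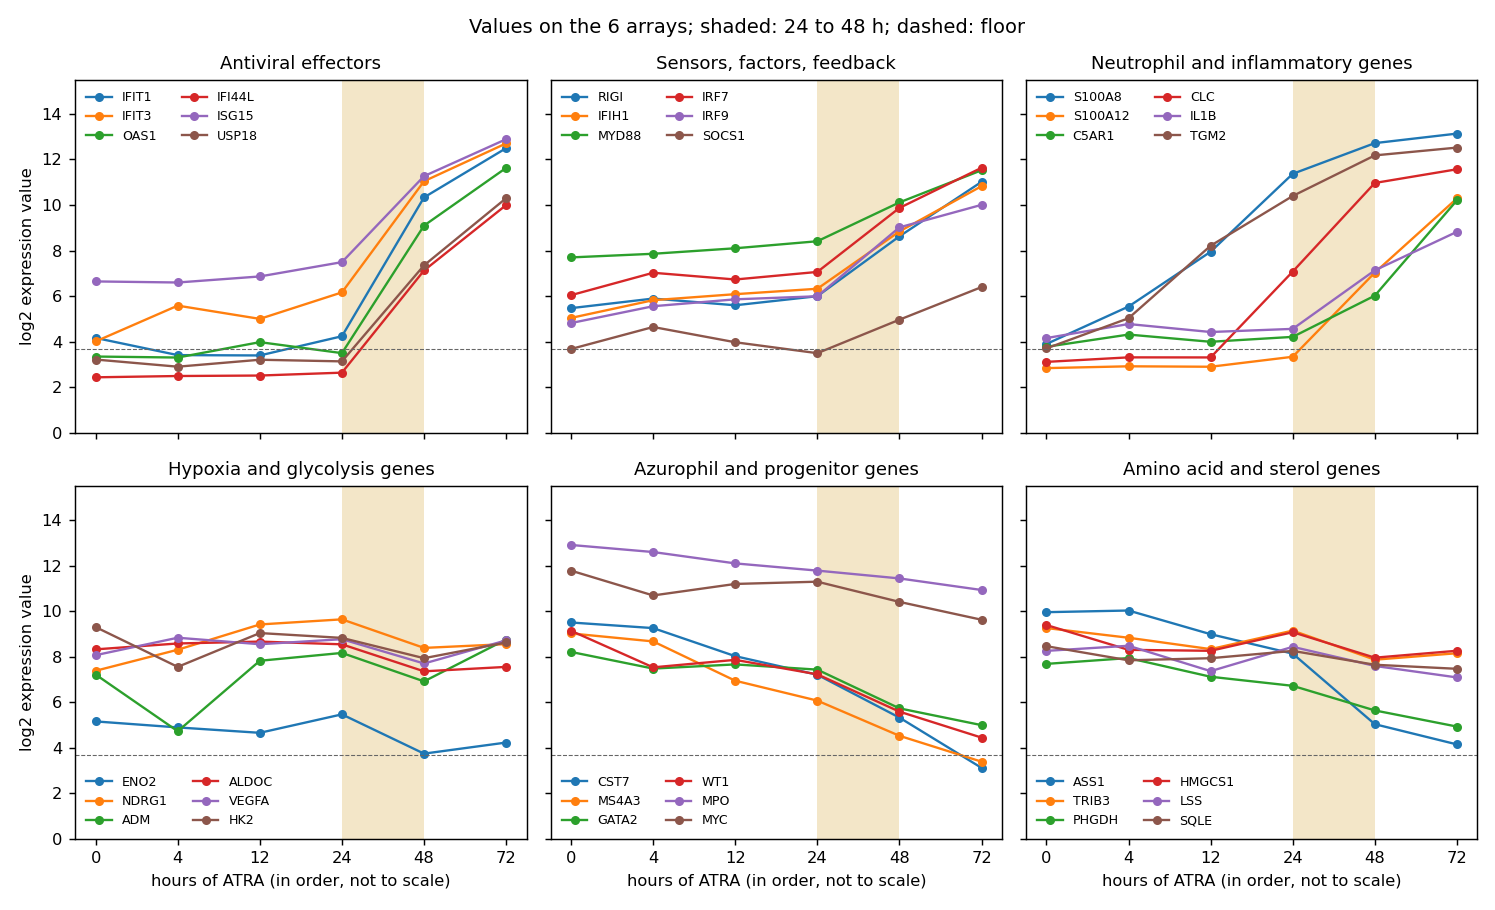
Log2 expression values of 36 genes in 6 groups on the 6 arrays, in order of time and not to scale, with the 24 to 48 h step shaded and the floor dashed; 1 array per point, so no error can be drawn. IFIT1, OAS1 and USP18 lie near the floor until 24 h and between 7.35 and 10.33 at 48 h, whereas ENO2, NDRG1 and ADM peak at 24 h among the first 4 arrays and drop at 48 h.

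Promoter sequences are shown for effectors, sensors and ligands because many of them shared a short sequence. The motif GAAANNGAA is the core of the ISRE, the site that the STAT and IRF9 complex contacts; it was searched on both strands from 250 bases before to 50 after each RefSeq gene start (build GRCh38.p14). Capitals mark matches, which appear as TTCNNTTTC where the match is on the other strand, and each line is written 5′ to 3′ on the gene's strand.
IFIT1: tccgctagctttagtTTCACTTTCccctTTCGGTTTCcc
IFIT5: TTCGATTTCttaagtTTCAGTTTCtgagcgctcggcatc
IFIT3: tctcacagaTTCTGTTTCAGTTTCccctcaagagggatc
ISG15: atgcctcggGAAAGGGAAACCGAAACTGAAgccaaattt
DDX60: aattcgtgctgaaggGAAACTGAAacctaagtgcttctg
OAS3: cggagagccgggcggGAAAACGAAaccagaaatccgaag
IFIH1: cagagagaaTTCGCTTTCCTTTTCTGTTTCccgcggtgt
EIF2AK2: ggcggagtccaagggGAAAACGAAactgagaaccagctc
TLR3: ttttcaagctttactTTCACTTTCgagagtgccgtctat
PARP9: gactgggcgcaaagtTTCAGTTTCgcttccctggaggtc
CXCL10: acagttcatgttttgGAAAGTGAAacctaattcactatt
TNFSF10: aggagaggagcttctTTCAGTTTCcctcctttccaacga
IFIT1 promoter: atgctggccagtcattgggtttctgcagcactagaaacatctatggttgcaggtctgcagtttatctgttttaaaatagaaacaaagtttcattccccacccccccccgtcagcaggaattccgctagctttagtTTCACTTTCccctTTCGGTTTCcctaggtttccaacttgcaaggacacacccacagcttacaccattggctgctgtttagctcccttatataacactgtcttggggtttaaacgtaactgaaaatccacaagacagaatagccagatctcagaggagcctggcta

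These windows lie at IFIT1 at chr10:89392493-89392531 (plus strand), IFIT5 at chr10:89414550-89414588 (plus strand), IFIT3 at chr10:89332421-89332459 (plus strand), ISG15 at chr1:1013375-1013413 (plus strand), DDX60 at chr4:168318817-168318855 (minus strand), OAS3 at chr12:112938447-112938485 (plus strand), IFIH1 at chr2:162318819-162318857 (minus strand), EIF2AK2 at chr2:37156963-37157001 (minus strand), TLR3 at chr4:186069138-186069176 (plus strand), PARP9 at chr3:122564317-122564355 (minus strand), CXCL10 at chr4:76023695-76023733 (minus strand) and TNFSF10 at chr3:172523593-172523631 (minus strand). The IFIT1 promoter is chr10:89392373-89392672 on the plus strand. The first base of the matches shown first lay 115 bases before the start in IFIT1, where a pair of matches stands 4 bases apart within the promoter printed whole. In ISG15 and IFIH1 3 matches run into each other, in ISG15 at 113, 107 and 101 bases before the start and in IFIH1 at 164, 158 and 152. PARP9 and DTX3L, which start next to each other in opposite directions, share 1 match, and so do CMPK2 and RSAD2; IFIH1 and GCA share 4.

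Of the 10342 compared genes with a promoter entry, 883 (8.54%) held the ISRE core. It was in 68 of 187 genes that were 2-fold or more higher at 48 h (36.4%), in 26 of 45 that were 4-fold or more higher (57.8%), in 23 of 32 antiviral effectors (71.9%) and in 5 of 51 lower genes (9.80%). Counted per promoter, the shares were 27.8% of 277 against 6.46% of 14852. Among higher genes outside the sensor, interferon regulatory factor, feedback, antiviral, ISG15, guanylate-binding and antigen processing lists, 35 of 141 (24.8%) held it. Absence from those lists does not show that a gene is free of interferon response. The 35 include CXCL10, TNFSF10 and GCA, which shares its matches with IFIH1. The share climbed in steps with the size of the difference, from 7.68% within 1.5-fold to 18.6% at 1.5- to 2-fold, 29.6% at 2- to 4-fold and 57.8% above. The 100 matches in higher genes had a median position 97 bases before the start, 45 of them within 100 bases before it and 6 after it. The gamma-activated site TTCNNNGAA, bound by STAT dimers, was in 14.4% of the higher genes, 26.7% of those 4-fold or more higher and 8.26% of all. The NF-kappaB letters GGGNNTTTC was in 9.09% against 6.54%, the E2F letters TTTCCCGC in 4.81% against 3.18% and TTTGGCGC in 0.535% against 1.28%. The E-box CACGTG, bound by MYC, was in 7.49% of higher and 15.7% of lower genes against 12.4% of all. Matches of different motifs can share bases, and a match describes letters and not binding. Higher genes with no ISRE core in this window included IRF9, OAS1, RIGI, SAMD9L, HERC6, UBE2L6, PSMB9 and BATF2.

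**Figure D3:**
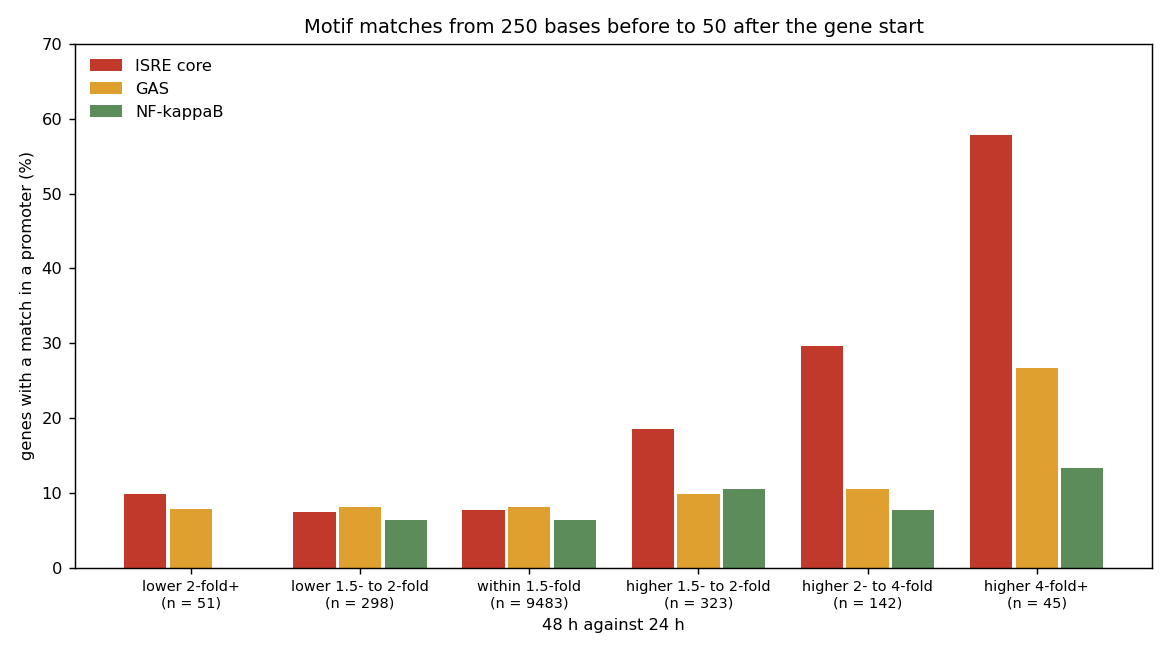
Share of genes with a match to the ISRE core, GAS or NF-kappaB letters in a promoter (y axis, percent) by the size of the 24 to 48 h difference (x axis, with the number of genes in each bin). The ISRE bars climb from 7.68% within 1.5-fold to 57.8% among genes 4-fold or more higher, and the NF-kappaB bars stay between 0 and 13.3%.

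Sensors of foreign nucleic acid were higher in part. Of 17 members compared, 6 were 2-fold or more higher and 0 lower, against 1.82% and 0.589% of all genes compared. The list median was 0.75 (0.36 with low ends at the floor). IFI16, a DNA sensor, read 3.99, 3.75, 4.19, 5.01, 8.24 and 10.31 on the 6 arrays, 9.39-fold higher at 48 than at 24 h. RIGI, which detects RNA with free ends, read 5.47, 5.89, 5.60, 5.99, 8.62 and 11.02 (6.19-fold), and IFIH1, which detects long double-stranded RNA, 5.04, 5.82, 6.08, 6.32, 8.84 and 10.83 (5.72-fold). These 3 sensors were flat or slowly climbing to 24 h and moved by over 2 log2 units in the next step. MYD88, the adaptor of most Toll-like receptors, was 3.26-fold higher (8.41 to 10.11), and EIF2AK2, the RNA-activated kinase PKR, 3.21-fold (7.77 to 9.45). TLR3, an endosomal RNA receptor, crossed the floor from 2.72 to 3.78, which places it at least 1.09-fold higher, and reached 7.28 at 72 h. It is counted among the 6 by its raw difference of 1.06, and does not reach 2-fold against the floor. The adaptor MAVS, through which RIGI and IFIH1 signal, was level (8.54 and 8.57), as was CGAS, the DNA-activated cyclase (5.23 and 5.27).

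The transcription factors and kinases of interferon signalling differed by member. IRF9, the DNA-binding subunit of the ISRE complex, read 4.82, 5.55, 5.86, 5.99, 9.02 and 10.01, 8.14-fold higher at 48 h. IRF7 read 6.04, 7.02, 6.73, 7.06, 9.87 and 11.63, 7.01-fold higher. The other 5 of 7 interferon regulatory factors stayed within 2-fold, among them IRF1 (8.38 to 8.87), which had gone from 5.77 to 8.25 by 4 h, and IRF3 (8.75 to 8.54). Of 8 JAK and STAT genes compared, JAK2, a kinase of cytokine and interferon-gamma receptors, was higher (5.86 to 7.34, 2.79-fold), and the list median was 0.17. The kinases JAK1 and TYK2 differed by 0.21 and 0.51. Feedback genes gave 2 of 9. USP18, which removes ISG15 from proteins and blocks the interferon receptor, read 3.21, 2.90, 3.20, 3.13, 7.35 and 10.30, at least 12.9-fold higher, and SOCS1, an inhibitor of JAK kinases, 3.68, 4.64, 3.97, 3.49, 4.96 and 6.39, at least 2.46-fold.

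Most interferon genes themselves were below the floor at both times. Of 24 ligands and receptors with a probe set, 17 were below the floor at 24 and 48 h, and the 7 compared were all within 2-fold with a median of 0.22. IFNB1, interferon beta, read 2.44, 2.41, 2.68, 2.43, 2.55 and 6.29, so that it stood above the floor at 72 h alone. IFNA1, an interferon alpha, read 2.31, 2.35, 2.50, 2.76, 2.89 and 7.42, also above the floor at 72 h alone. The receptor chains IFNAR1 and IFNAR2 were present throughout, at 6.12 and 7.62 at 24 h and 6.35 and 7.66 at 48 h. A value below the floor does not show that a transcript was absent.

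The ISG15 system, in which a ubiquitin-like protein is attached to others by its own enzymes, was higher in 5 of 7 members (median 2.64). ISG15 read 6.64, 6.60, 6.86, 7.49, 11.27 and 12.89, 13.7-fold higher at 48 h. HERC5, its main ligase, read 6.16, 5.35, 4.48, 3.64, 7.92 and 11.05: it declined over the first 4 arrays to just below the floor, and was then at least 19.2-fold higher. HERC6, a related ligase, was 6.22-fold higher (3.81 to 6.44) and UBE2L6, the conjugating enzyme, 2.31-fold (4.21 to 5.41). TRIM25, also a ligase for ISG15, was just under 2-fold higher (8.51 to 9.49), and ARIH1, a ubiquitin ligase of the same list, was level (7.98 to 7.93).

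Guanylate-binding proteins, which coat pathogen compartments, were higher in 2 of 4, with a median of 1.24 (1.18 with low ends at the floor). GBP1 went from 3.29 to 5.45 (at least 3.45-fold) and GBP3 from 5.32 to 7.23 (3.78-fold). Antigen processing moved less: 16 of 16 members were above 0 and 2 reached 2-fold. The median was 0.65, against -0.03 over all genes compared. TAP1, the peptide transporter, read 4.50, 4.60, 5.54, 5.92, 7.52 and 10.26 (3.03-fold), and PSMB9, an immunoproteasome subunit, 4.23, 5.64, 7.09, 8.04, 9.51 and 10.82 (2.78-fold). Both were already above their untreated level at 12 h. The class I chain HLA-B was 1.92-fold higher (10.16 to 11.10). Of 8 class II genes, HLA-DOB (4.72 to 6.05) and CD74, the invariant chain (4.53 to 5.54), were higher, and the median was 0.04. Another probe set of CD74 moved the other way, by -0.13.

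The sensor, interferon regulatory factor, feedback, antiviral, ISG15, guanylate-binding and antigen processing lists held 97 compared genes, counting each gene once. Of these, 53 were 2-fold or more higher and 0 were lower, against 1.82% and 0.589% of all genes compared. Some of the 97 passed the floor through the 48 h array alone, among them 10 antiviral effectors. Some array controls moved between the same pair of arrays. The 5′ probe set of the 28S ribosomal RNA control went from 7.48 to 9.51, its middle set from 8.81 to 9.83 and its 3′ set from 4.97 to 5.00, and the 18S 3′ control read 6.80 and 6.76. The difference between 3′ and 5′ probe sets of GAPDH was 0.11 at 24 h and 0.13 at 48 h, and of ACTB 0.20 and 0.23. The 28S 5′ control was highest at 12 h (10.32), where the 18S 3′ control was also high (9.98, against 6.06 untreated). The part of these controls in the result was not tested.

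**Figure D4:**
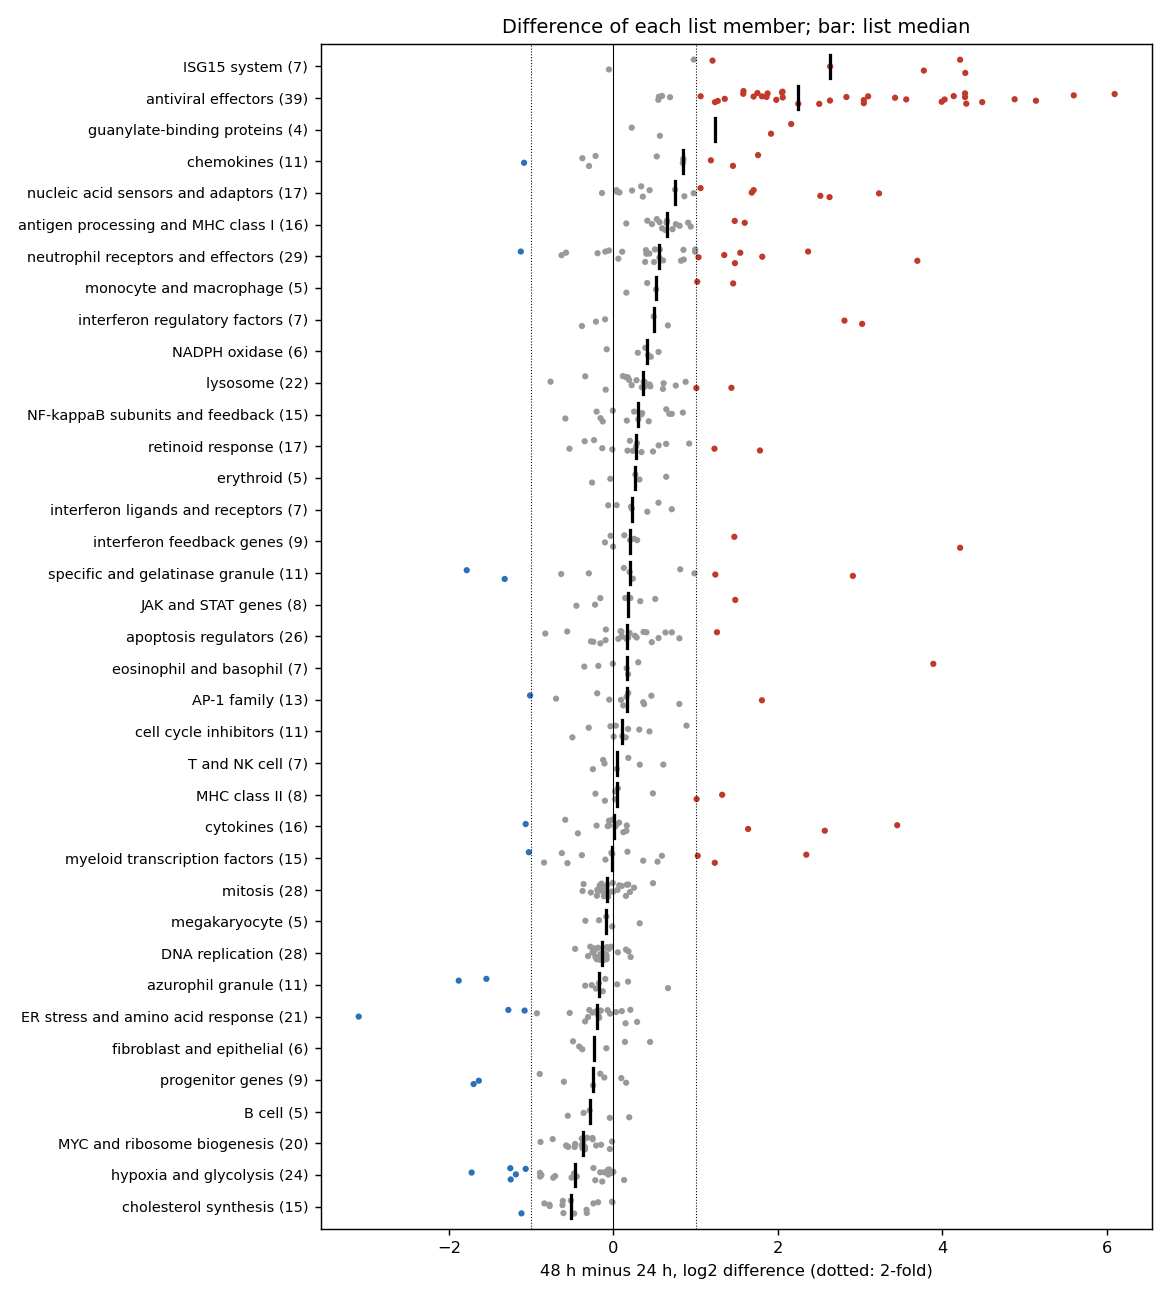
Difference from 24 to 48 h (x axis, log2) of each compared member of 37 gene lists, with the number of members in brackets, bars at list medians, dotted lines at 2-fold, red for higher and blue for lower. The ISG15 and antiviral lists lie to the right with medians of 2.64 and 2.25, and the hypoxia and cholesterol lists to the left with medians of -0.46 and -0.52.

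Secreted factors moved one by one. TNFSF10 (TRAIL, a death receptor ligand) read 5.60, 3.71, 3.56, 3.65, 7.10 and 11.05, at least 10.8-fold higher at 48 h after a fall in the first 4 h. IL1B, interleukin-1 beta, read 4.16, 4.77, 4.42, 4.56, 7.13 and 8.82 (5.94-fold), and TNFSF13B (BAFF, a B cell survival factor) 7.77, 7.39, 7.11, 7.98, 9.62 and 11.79 (3.11-fold). These 3 were the higher members among 16 cytokines, whose median was 0.01. Among 11 chemokines, CCL4, an attractant of monocytes and T cells, was 3.38-fold higher (7.07 to 8.83), CXCL10, a T cell attractant, 2.74-fold (6.13 to 7.59, then 12.58 at 72 h) and CCL24, an eosinophil attractant, 2.27-fold (5.88 to 7.07). CCL5 was lower, from 10.02 to 8.93. CCL2, a monocyte attractant, had reached 10.36 by 24 h and differed by 0.53, and CXCL8, interleukin-8, was level (11.63 and 11.41). NF-kappaB subunits and feedback genes had 0 of 15 members past 2-fold and a median of 0.30, the largest difference being TNFAIP2, a target of tumour necrosis factor (9.30 to 10.15). CASP1, the protease that cuts pro-interleukin-1 beta, was 2.39-fold higher (7.35 to 8.61), the 1 of 26 apoptosis genes past the limit.

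Among neutrophil receptors and effectors, 7 of 29 were higher and 1 lower, against 1.82% and 0.589% of all genes compared. The list median was 0.56. S100A12, a calcium-binding alarmin, read 2.84, 2.92, 2.90, 3.34, 7.03 and 10.29, at least 10.3-fold higher at 48 h. CLEC7A, the beta-glucan receptor dectin-1, went from 2.84 to 5.20 (at least 2.91-fold). C5AR1, the complement C5a receptor, read 3.77, 4.31, 3.99, 4.21, 6.02 and 10.20 (3.51-fold), and FPR1, the formyl peptide receptor, 3.94, 3.86, 4.20, 3.70, 5.24 and 7.11 (2.91-fold). These 4 were flat for the first 24 h. S100A8 differed: it read 3.90, 5.54, 7.95, 11.37, 12.72 and 13.13, so the 2.55-fold step from 24 to 48 h followed larger ones. ITGAM, the CD11b integrin chain, was 2.05-fold higher (8.52 to 9.55), with another of its probe sets at -0.14, and MGAM, maltase-glucoamylase, 2.79-fold (4.95 to 6.43). TREM1, an amplifier of inflammation, was 2.18-fold lower (5.56 to 4.44). The 6 NADPH oxidase genes compared, which make superoxide, were within 2-fold with a median of 0.40, CYBB going from 10.35 to 10.90. CLC, a galectin that forms crystals in eosinophils and basophils, read 3.11, 3.31, 3.31, 7.08, 10.97 and 11.57, 14.8-fold higher at 48 h after a first appearance at 24 h.

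Granule protein genes gave values in both directions. In the azurophil list 0 of 11 were higher and 2 lower (median -0.18). CST7, cystatin F, read 9.50, 9.25, 8.02, 7.20, 5.32 and 3.12, 3.69-fold lower at 48 h, and MS4A3, a membrane protein of granulocyte progenitors, 9.02, 8.67, 6.94, 6.07, 4.52 and 3.39, 2.92-fold lower. Both lost level on every array after the first. DEFA4, a defensin, was above 0 (11.49 to 12.15). Among specific and gelatinase granule genes 2 of 11 were higher and 2 lower. CRISP3, a specific granule protein, went from 2.61 to 5.52 (at least 3.64-fold) and was 4.39 at 72 h, and MMP8, neutrophil collagenase, from 3.08 to 4.32. MMP8 is counted as higher by its raw difference of 1.24, and does not reach 2-fold against the floor. MMP9, gelatinase B, was 2.50-fold lower (6.51 to 5.19), and CHI3L1, a chitinase-like protein, read 7.04, 7.29, 7.78, 7.20, 5.42 and 7.31, 3.44-fold lower at 48 h and back at 72 h.

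Most retinoid response genes were within 2-fold. Of 17 compared, 2 were higher and 0 lower, with a median of 0.28. TGM2, tissue transglutaminase, read 3.70, 5.03, 8.21, 10.40, 12.18 and 12.52 (3.44-fold), and PLAAT4, a retinoid-induced phospholipase, 3.39, 4.33, 5.76, 6.67, 7.90 and 9.39 (2.34-fold). Both were still climbing, whereas ASB2 (9.28 to 9.76) and DHRS3, a retinal reductase (8.43 to 8.63), had reached most of their level by 12 h. CYP26A1, which degrades retinoic acid, differed by 0.55 (4.36 to 4.91), and CEBPE, a factor of late granulocyte maturation, by 0.17 (10.28 to 10.45). Of 15 myeloid transcription factors, EGR3 (4.56 to 6.90, 5.08-fold), MXD1, a MYC antagonist (6.43 to 7.66, 2.35-fold), and ID2, an inhibitor of helix-loop-helix factors (8.62 to 9.64, 2.04-fold), were higher. EGR1, an immediate early factor, was 2.04-fold lower (9.64 to 8.61). In the AP-1 list BATF2, also an interferon-induced gene, was higher (6.63 to 8.44) and JUN lower (7.06 to 6.04). In the lysosome list CTSD and CTSS, a pair of cathepsin proteases, were 2.70- and 2.01-fold higher among 22, with a median of 0.36.

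The deepest fall was in arginine synthesis. ASS1, argininosuccinate synthase, read 9.95, 10.02, 8.98, 8.13, 5.03 and 4.14 on the 6 arrays, 8.56-fold lower at 48 than at 24 h. Of 21 genes of the ER stress and amino acid response, 3 were lower and 0 higher (median -0.20): beside ASS1 these were TRIB3, a pseudokinase induced by amino acid shortage (9.14 to 7.86, 2.43-fold), and PHGDH, which opens serine synthesis (6.72 to 5.64, 2.11-fold). ASNS, asparagine synthetase, went from 6.94 to 6.41, and HSPA5, the ER chaperone BiP, from 10.99 to 11.27.

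Genes of hypoxia and glycolysis were lower in 5 of 24 and higher in 0. Their median was -0.46, against -0.03 over all genes compared, and 1 member was above 0. ENO2, an enolase, read 5.15, 4.89, 4.65, 5.46, 3.74 and 4.23 (3.30-fold lower at 48 h), and NDRG1, a marker of hypoxia, 7.38, 8.30, 9.41, 9.64, 8.38 and 8.55 (2.39-fold). ADM, adrenomedullin, read 7.21, 4.72, 7.82, 8.16, 6.91 and 8.75 (2.38-fold). For all 3 the 24 h array was the highest of the first 4, and ADM was higher again at 72 h. ALDOC, an aldolase, was 2.28-fold lower (8.54 to 7.35) and VEGFA, vascular growth factor, 2.10-fold (8.76 to 7.70, and 8.71 at 72 h). The core enzymes GAPDH (13.03 and 13.01), PGK1 (12.37 and 12.37) and TPI1 (11.73 and 11.68) were level. HILPDA, a lipid droplet protein induced by low oxygen and outside the list, was 3.12-fold lower (8.01 to 6.37). Because the 24 h array was high for these genes, the choice of that array matters: against the 4 h array the list median was 0.03.

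Cholesterol synthesis and ribosome biogenesis were shifted down without large single changes. The median over all genes compared was -0.03, and the scalings by controls raised every gene at 48 h by 0.17 or 0.12. Of 15 sterol genes 0 were above 0 and 1 was 2-fold lower (median -0.52): HMGCS1, which makes the substrate of HMG-CoA reductase, read 9.39, 8.30, 8.25, 9.07, 7.95 and 8.26, 2.17-fold lower at 48 h. LSS, lanosterol synthase, went from 8.43 to 7.59 and DHCR7, the last reductase, from 9.16 to 8.38. Of 20 MYC and ribosome biogenesis genes, 0 were above 0 and 0 reached 2-fold (median -0.37). MYC itself read 11.77, 10.69, 11.19, 11.29, 10.40 and 9.62, 1.85-fold lower at 48 h. Progenitor genes gave 2 lower of 9 (median -0.25). GATA2, a stem and progenitor factor, read 8.20, 7.47, 7.66, 7.43, 5.73 and 4.99 (3.25-fold lower), with another of its 3 probe sets at 0.12, and WT1, expressed in most acute myeloid leukaemias, 9.13, 7.53, 7.86, 7.22, 5.58 and 4.44 (3.11-fold).

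Cell cycle genes showed little between 24 and 48 h. None of 28 DNA replication genes (median -0.14) and none of 28 mitosis genes (median -0.07) was past 2-fold. Over all genes compared the shares were 1.82% higher and 0.589% lower, so these counts of 0 are near them. PCNA, the replication clamp, read 11.17 and 11.38, and PLK1, a mitotic kinase, 9.10 and 8.82. From 48 to 72 h, a step that shares the 48 h array, the medians were -0.79 and -1.01. With all hybridisation controls at an equal median the replication median turned to 0.03. CDKN1B, the inhibitor p27, was 1.85-fold higher (6.80 to 7.69), and 0 of 11 cell cycle inhibitors reached 2-fold.

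Outside the lists, the largest falls among genes measured on both arrays included OAF (7.22 to 4.94, 4.86-fold), RGS16, a regulator of G protein signalling (8.25 to 5.99, 4.81-fold), SPARC, a matrix protein (6.57 to 4.67, 3.73-fold), and GJA1, a connexin (7.63 to 6.22, 2.67-fold). S1PR3, a sphingosine phosphate receptor, went from 4.60 to below the floor (2.85). Of the higher genes 82 of 235 were in a list, and of the lower genes 19 of 76. The share of all compared genes in a list was not counted, and the lists were chosen with earlier results known. These counts therefore describe only how much the lists cover. SLFN5, of the Schlafen family, was 8.88-fold higher (3.88 to 7.03) and DDX60L, a relative of DDX60, 7.61-fold (6.12 to 9.04). Among higher genes chosen for mention after their values were seen, CYP1B1, a P450 enzyme induced through the aryl hydrocarbon receptor, read 6.83, 7.89, 4.28, 3.77, 6.56 and 8.89. It is thus a gene that dropped between 4 and 12 h and came back. CD274, the checkpoint ligand PD-L1, went from below the floor (2.67) to 4.99 and was 9.32 at 72 h. Another probe set of CD274 differed by 0.37.

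Over all genes compared, 1.82% were 2-fold or more higher and 0.589% lower, so a count of 0 in a short list is near those shares. Of markers of other cell types that passed the floor, 0 of 5 B cell, 0 of 7 T and NK cell, 0 of 5 erythroid, 0 of 5 megakaryocyte and 0 of 6 fibroblast and epithelial genes passed 2-fold either way. Their unlogged values summed to 263 and 221 (B cell), 899 and 1052 (T and NK cell, mostly NKG7 and CD4), 176 and 204 (erythroid), 124 and 116 (megakaryocyte) and 171 and 155 (fibroblast and epithelial) at 24 and 48 h. Of the monocyte and macrophage list, 10 of 15 were below the floor on both arrays, CD14, CD163, MRC1 and MARCO among them. MERTK, a receptor for dying cells, was 2.74-fold higher (6.64 to 8.09) and ADGRE1, the homologue of mouse F4/80, 2.03-fold (4.59 to 5.61), and the 5 kept members were all above 0, with a median of 0.52 (0.41 with low ends at the floor), and summed to 181 and 396. Their part in the other results was not tested. Of 7 eosinophil and basophil genes CLC alone passed 2-fold, EPX, eosinophil peroxidase, going from 6.98 to 7.14. In RNA from a whole culture, more cells of a kind and more RNA per cell cannot be told apart.

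The same genes were compared on the untreated, 4, 12 and 72 h arrays, which did not enter the 24 to 48 h difference. These arrays are not a fully separate check, because each gene's probe set was chosen by its mean value across all arrays. The 235 higher genes also include 37 that were below the floor at 24 h, and the shares below count them. Of the 235 genes higher at 48 than at 24 h, 230 (97.9%) were also 2-fold or more higher at 72 than at 4 h, which is 17.8% of the 1289 genes with that property (10% of those compared), and 0 were 2-fold lower, against 10.8% of those compared. The median 72 minus 4 h difference was 3.76 (range 0.03 to 9.63), against -0.12 over all compared genes. On the 72 h array 222 of the 235 (94.5%, and 23.6% of the 940 such genes) stood 2-fold or more above the highest of the untreated, 4 and 12 h arrays, against 7.29% of all compared. Between the untreated and 12 h arrays, 51 (21.7%) were 2-fold higher, against 2.43%, and 5 were lower, against 1.85%. The median 12 h minus untreated difference of the 235 was 0.42.

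The lower genes held less uniformly. Of 76, 46 (60.5%) were 2-fold or more lower at 72 than at 4 h, which is 3.30% of the 1393 such genes, and 5 (6.58%) were higher. The median was -1.45 (range -6.14 to 4.09). On the 72 h array 38 of 76 (50%) stood 2-fold or more below the lowest of the untreated, 4 and 12 h arrays, against 4.25% of all compared. Between the untreated and 12 h arrays, 23 (30.3%) were 2-fold or more lower, against 1.85% of all compared, and 7 (9.21%) were 2-fold or more higher, against 2.43%. The 12 lower genes whose 72 h value was above the 4 h value by any amount were ADM, CA6, CHI3L1, EGR1, ERRFI1, JUN, MXI1, NDRG1, SLC6A8, SPAG4, TGIF1 and TNFRSF1B, with EGR1 the largest (4.09). No higher gene had a 72 h value below its 4 h value.

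**Figure D5:**
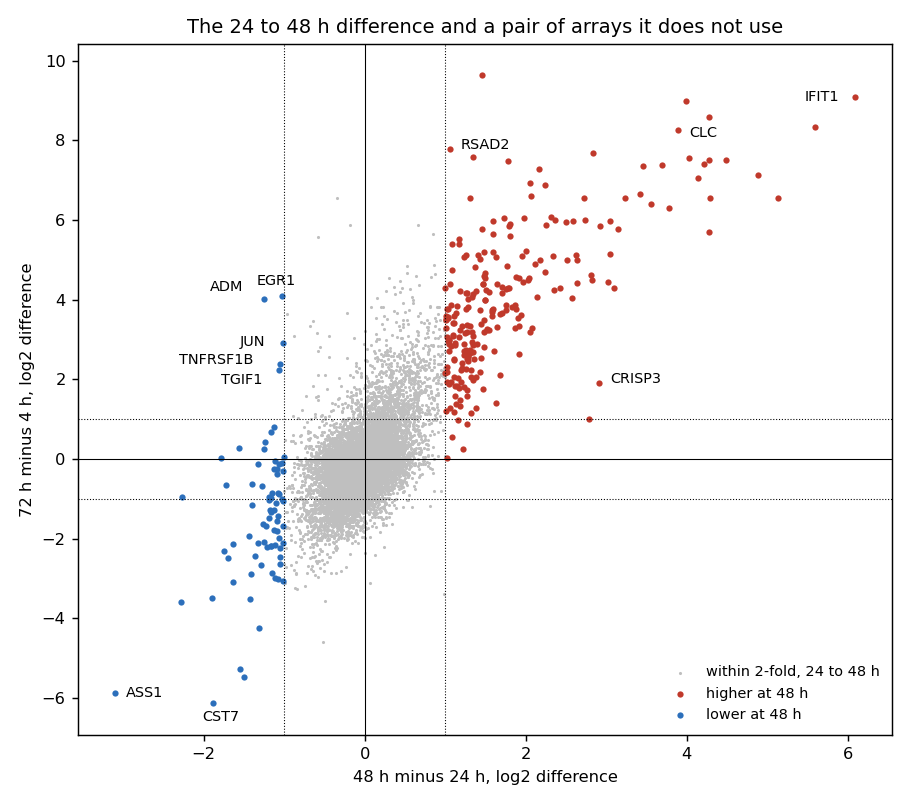
The 24 to 48 h difference (x axis, log2) against the difference between the 72 h and 4 h arrays, which it does not use (y axis, log2), 1 point per compared gene with 2-fold limits dotted. All 235 red points (higher at 48 h) lie above 0 on the y axis, and 12 of the 76 blue points do so too, among them EGR1, ADM and JUN.

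The neighbouring steps share the 24 h or the 48 h array with this one, and the list medians are given side by side. Antiviral effectors had medians of 0.19 from 4 to 24 h, 2.25 from 24 to 48 h and 1.99 from 48 to 72 h, and sensors 0.13, 0.75 and 0.76. Interferon regulatory factors had 0.44, 0.49 and 0.87, guanylate-binding proteins 0.60, 1.24 and 2.90, and antigen processing genes 0.77, 0.65 and 0.88. Retinoid response genes had 0.82, 0.28 and 0.34, and NADPH oxidase genes 0.87, 0.40 and 0.24. Hypoxia genes had 0.45, -0.46 and 0.17, and sterol genes 0.28, -0.52 and 0.02.

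Other probe sets of the same genes mostly pointed the same way. Of 118 higher genes with several probe sets past the floor, 107 had every one above 0 and 57 had every one past 2-fold. An opposite one was present in 11: APOBEC3G, CD74, FBN1, ITGAM, ITPR2, MOB3C, OSBPL11, PLXNC1, RABGAP1L, SMARCA2 and SSPN. Of 33 such lower genes, 29 had every one below 0 and 12 every one past 2-fold, and GATA2, KICS2, S1PR3 and TGIF1 had an opposite one. Named genes with only 1 probe set past 2-fold included VEGFA (1 of 4), SOCS1, MXD1 and CCL5 (1 of 3 each) and S100A8, CD274 and TRIB3 (1 of 2 each). The other probe set of TRIB3 was at -0.81. The median over probe sets was -0.71 for VEGFA, 0.77 for SOCS1 and 0.83 for MXD1. The 3 probe sets of RIGI ranged from 2.63 to 3.80 and the 3 of IFIH1 from 1.25 to 2.52.

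Higher genes often lay side by side on the chromosomes. Of the 235, 52 (22.1%) had another higher gene as the next compared gene in the RefSeq order, against 405 of 12646 other genes (3.20%). They formed 23 runs. The longest was IFIT2, IFIT3, IFIT1 and IFIT5, and runs of 3 were OAS1, OAS3 and OAS2, then SP110, SP140L and SP100, then PSMB8-AS1, TAP1 and PSMB9, and DDX60, DDX60L and PALLD. Pairs included HERC6 with HERC5, SAMD9 with SAMD9L, IFI44L with IFI44, S100A12 with S100A8 and TRIM5 with TRIM22. Members of such runs can be related in sequence, so that their probe sets may share targets.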

How the data were processed

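The data were the deposited series table of log2 probe set values from 6 Affymetrix arrays. The authors made these log2 values with RMA, per the submitters' processing notes; its version, its settings and the genome build were not given in the sources used here. RMA as usually run corrects background, equalises the arrays' distributions and summarises probes into probe sets. With such scaling a change of total RNA per cell is not visible, and folds near the floor are compressed. Per the labels' protocols, total RNA was labelled by a one-cycle kit.

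Probe sets were named from the platform annotation, and 41037 of the 41091 single-gene, non-control probe sets had their symbol updated by gene number to the GRCh38.p14 RefSeq table. A gene is its probe set of greatest mean value across the 6 arrays, compared where its 24 or 48 h value reached the floor (the median of all values). Differences are 48 h minus 24 h with no further normalisation, no test and no error, and 2-fold marks the counts. Named are the 15 largest rises and falls measured on both arrays, the 10 that came from and the 10 that went below the floor with the highest values, up to 8 members of each of 37 lists, and 20 fixed genes; other genes named were chosen after their values were seen. The genes compared and the lists were chosen with earlier results of these data known. Python 3.11.15 (pandas 2.3.3, numpy 2.4.6) was used, with limma 3.58.1 in R 4.3.3 for cyclic loess. The counting was tested on simulated data. Alternatives were other scalings, filters, probe set rules, folds and baseline arrays. Values from 1 array have a precision that cannot be stated.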

Additional observations from a re-analysis of the deposited data

How the results depend on the processing

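No paired analysis was possible because each time has 1 array and the labels give no replicate numbers. Arrays of 1 sample a time leave culture, array and time inseparable, and values near the floor have no order. The count of 235 higher genes stayed between 185 and 331 under other scalings, filters and probe set rules. It was 665 with the 4 h array as baseline (217 shared), 411 with the mean of 4 and 24 h (223 shared), 631 at 1.5-fold and 58 at 4-fold. The count of 76 lower genes was 36 with all hybridisation controls at an equal median, 47 with bioB, bioD and cre at an equal mean, 302 with the 4 h baseline (46 shared), 123 with the mean baseline (51 shared), 467 at 1.5-fold and 3 at 4-fold, and between 54 and 78 otherwise. The ISRE share of 36.4% was 25.1% at 1.5-fold, 57.8% at 4-fold, 27.8% per promoter and 24.8% among higher genes in none of the interferon lists. The last pair was chosen after seeing the data. Against the 4 h array, medians reversed for the JAK and STAT (-0.012), feedback (-0.12), hypoxia (0.033) and eosinophil and basophil (-0.62) lists. The last was also -0.27 with the mean baseline and -0.0066 with no filter. The specific granule median was -0.60 with the floor at percentile 75, and the DNA replication median 0.030 with all controls at an equal median. EGR1 was 3.25 against the 4 h array and 1.11 against the mean, JUN 1.11 and 0.048, ADM 2.19 and 0.47, and NDRG1 0.081 against the 4 h array. Counting each list or gene once per setting, 347 other list values and 2669 other single-gene values moved by less than 1.5-fold. Another 13 and 182 moved beyond it without being counted as reversed. Sign changes of small list medians and of single-gene differences under 2-fold were not counted as reversals. Among them, the myeloid transcription factor median of -0.014 was 0.77 against the 4 h array. The cause of these changes was not tested, beyond the construction of each setting.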

Other observations

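Gene families were picked by symbol after their values were seen. Over all genes compared, 1.82% were 2-fold or more higher and 0.589% lower, and the counts of 0 for ribosomal protein genes are near those shares. Of 60 compared cytosolic ribosomal protein genes 0 were past 2-fold (lowest -0.51, highest 0.23), and of 76 mitochondrial ribosomal protein genes 0. Of 250 solute carrier genes, SLC25A20, the carnitine carrier of mitochondria, was higher (1.05), and SLC7A5 and SLC7A2, which carry amino acids, and SLC6A8, which carries creatine, were lower (-1.01, -1.23 and -1.16). Of 41 TRIM genes 4 were higher (TRIM22, TRIM5, TRIM69 and TRIM38) and 0 lower, with a family median of -0.01; TRIM22 and TRIM5 are also in the antiviral list. Of 29 histone genes H2BC5 and H2AC6 were higher (1.09 and 1.08). Of 321 zinc finger genes named ZNF, ZNF217 was higher and ZNF395 lower.

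Probe sets with no listed gene also moved. Of 3759 such probe sets past the floor, 46 (1.22%) exceeded their 24 h value by 2-fold or more at 48 h and 10 (0.266%) were lower by as much. Those listing several genes gave 19 higher (1.60%) and 11 lower (0.927%) of 1186, against 429 (1.83%) and 120 (0.512%) of 23440 single-gene probe sets.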
